A study of Mus musculus with 72 samples.

Results

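The sites of changed histone H3 lysine 27 monomethylation (H3K27me1) that susceptible and resilient mice had in common were examined in the nucleus accumbens. A common site was any pair of rows, one from the susceptible table and one from the resilient table of differential sites, that shared at least 1 bp. The rule gave 1670 pairs, built from 1655 of 12127 susceptible sites (13.6%) and 1653 of 7015 resilient sites (23.6%), out of 36113 sites in the 5 tables of the series. The libraries came from wild-type adult males in 3 groups: susceptible after chronic social defeat stress (4 H3K27me1 libraries, numbers 26, 29, 32 and 35), resilient after the same stress (4 libraries, 27, 30, 33 and 36) and control (4 libraries, 25, 28, 31 and 34). Both tables were made against the same 4 control libraries, so the susceptible and resilient changes are not independent of each other. Nothing in the labels says that the libraries of a group came from separate mice, so p-values measure only the spread between these libraries. Members were chosen by their measured difference from control in both tables, and those differences from control are therefore given as descriptions with no test.

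Chronic social defeat exposes a mouse repeatedly to a larger aggressor. Some animals then avoid social contact and are called susceptible, and the others, which keep interacting, are called resilient. The nucleus accumbens is part of the ventral striatum that serves reward and motivation, and is made up mostly of GABAergic medium spiny neurons. Lysine 27 of histone H3 is methylated by Polycomb repressive complex 2, whose catalytic subunits are Ezh1 and Ezh2 and whose core partners are Eed, Suz12 and Rbbp4. The trimethyl form marks repressed genes, the dimethyl form is spread widely over inactive chromatin, and the monomethyl form is found largely inside transcribed gene bodies. CUT&RUN releases the DNA around a chromatin mark with an antibody-guided nuclease, and IgG libraries give its background.

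Most common sites lay inside genes. Of the 1670 pairs, 1426 (85.4%) lay in the body of a protein-coding gene, 176 (10.5%) between genes and 68 (4.07%) within 1000 bp of a transcription start. Any annotated start of a protein-coding transcript counted, so a start site can lie inside a gene. Start sites made up 52 of the 887 pairs lower in both outcomes (5.86%) and 11 of the 723 pairs higher in both (1.52%), 4 of these 11 on the mitochondrial genome. In 4 pairs the 250 bases before a RefSeq start were wholly inside the shared bases and met no annotated exon. These were at Sgk1, Znfx1, Lmnb2 and the multi-copy Duxf3. All 4 were lower in both outcomes. The first 3, which are not multi-copy, are printed so that the bases before these starts can be read. Each may be an alternative start of its gene. They are RefSeq sequences of build GRCm38.p6, 5′ to 3′ on the gene's strand, with CG dinucleotides in capitals.
Sgk1, + strand, chr10:21978422-21978671: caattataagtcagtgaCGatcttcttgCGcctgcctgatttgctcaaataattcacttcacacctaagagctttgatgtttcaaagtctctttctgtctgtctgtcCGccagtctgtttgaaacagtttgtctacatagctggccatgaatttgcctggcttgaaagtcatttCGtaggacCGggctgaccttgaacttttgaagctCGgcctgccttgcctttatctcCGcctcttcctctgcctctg
Znfx1, - strand, chr2:167043496-167043745: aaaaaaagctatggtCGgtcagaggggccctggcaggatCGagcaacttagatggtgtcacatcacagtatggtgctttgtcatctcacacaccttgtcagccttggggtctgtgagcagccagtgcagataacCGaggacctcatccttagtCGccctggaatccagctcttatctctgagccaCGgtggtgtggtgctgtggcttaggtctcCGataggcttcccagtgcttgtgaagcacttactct
Lmnb2, - strand, chr10:80906413-80906662: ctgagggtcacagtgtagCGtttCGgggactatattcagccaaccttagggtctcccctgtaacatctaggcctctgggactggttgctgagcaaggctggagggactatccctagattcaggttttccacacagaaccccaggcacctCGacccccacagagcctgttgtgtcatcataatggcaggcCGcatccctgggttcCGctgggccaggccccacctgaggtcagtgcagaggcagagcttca
These hold 7, 6 and 5 CG dinucleotides, against a median of 6 (quartiles 2 and 16) over the 250 bases before 27025 RefSeq promoters, 1 per gene symbol. The 3 were drawn from all RefSeq starts of their genes and had to avoid annotated exons, which that background did not. They were therefore not chosen in the same way as that background. The GC box GGGCGG, searched on both strands, is in none of the 3 and in 32.9% of those promoters. TATAAA, also on both strands, is in none of the 3 and in 13.0% of all. No match says only that these letters are not in the window.

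Sgk1 encodes a serum- and glucocorticoid-inducible kinase. At a start site of this gene, normalised counts (reads divided by a library constant) were 77.05, 55.09, 60.50 and 66.57 in the susceptible libraries. They were 63, 72.05, 70.56 and 60.69 in the resilient libraries. Controls had 91.03, 103.69, 98.13 and 79.89 over the susceptible window and 92.41, 107.85, 95.95 and 74.49 over the resilient window. No stressed library reached the control range of its table. The log2 ratio to control was -0.52 in susceptible and -0.48 in resilient mice. Znfx1, an RNA helicase of antiviral sensing, had log2 ratios of -0.62 in susceptible and -0.47 in resilient mice. For Lmnb2, a nuclear lamin, they were -0.40 in susceptible and -0.37 in resilient mice. Every start-site window here was chosen after its values were seen.

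Depth was alike across groups. The mean number of reads in a 1000-bp bin, per the file headers, was 22.62 to 29.54 in the susceptible group, 21.29 to 30.39 in the resilient group and 20.57 to 30.24 in the control group. The median normalised count at the common sites was 113.78 to 116.72 in susceptible, 108.12 to 109.83 in resilient and 109.38 to 119.47 in control libraries. A pair's windows rarely coincide exactly (130 pairs had the same coordinates), so the same control library gave slightly different ratios in the 2 tables. The median absolute gap between them was 0.049 to 0.055 on the log2 scale per control library, and the largest were 0.60 to 0.75.

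The direction was shared at 1610 of 1670 pairs (96.4%). H3K27me1 was lower than control in both outcomes at 887 pairs, higher in both at 723, lower in susceptible and higher in resilient mice at 38, and higher in susceptible and lower in resilient mice at 22. Over all tested windows, the authors' adjusted p was under 0.05 for 4.48% in the susceptible comparison (2.26% higher and 2.23% lower) and for 2.54% in the resilient comparison (1.31% higher and 1.23% lower). The rule used these contrasts and the control libraries are shared, so nothing is read from the shared direction. The changes were small. At pairs higher in both, the median log2 ratio was 0.43 in susceptible mice (range 0.08 to 0.75) and 0.43 in resilient mice (0.14 to 0.69). At pairs lower in both it was -0.43 in susceptible mice (-0.95 to -0.04) and -0.42 in resilient mice (-0.74 to -0.06).

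**Figure D1:**
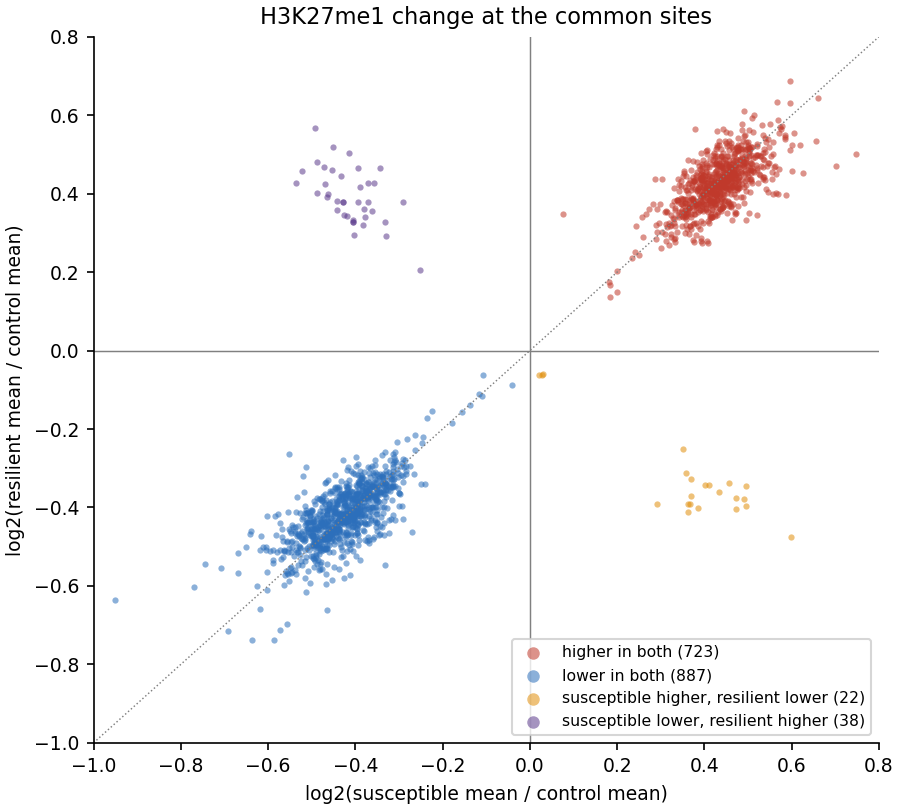
Each point is 1 of the 1670 pairs, with the log2 ratio of the susceptible mean to the control mean on the horizontal axis and that of the resilient mean on the vertical axis, colored by direction class; the dotted line marks equal change. The 723 pairs higher in both and the 887 lower in both lie near the dotted line, and few lie near 0, since every site was one the authors had called.

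The common sites had about the same size of change as the other sites of each table. The median absolute log2 ratio was 0.43 at the 1655 susceptible sites with a resilient partner and 0.43 at the 10472 without one. It was 0.42 at the 1653 resilient sites with a partner and 0.43 at the 5362 without one. Fewer common sites were higher than control, 44.7% against 51.2% of the rest in the susceptible table and 45.5% against 53.5% of the rest in the resilient table. The median change was smaller where the control level was higher. Low counts pass the authors' p limit only with large ratios, and the control count is the ratio's divisor, so nothing is read from this. Pairs were divided into 3 equal parts by control count. Pairs lower in both had medians of -0.50 in susceptible and -0.48 in resilient mice in the part with the lowest control counts (up to 99.19), and of -0.38 in susceptible and -0.37 in resilient mice in the part with the highest (140.57 and above).

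The 60 opposite pairs were of another geometry. Sites lie on a 100-bp step, so the smallest overlap was 100 bp. Of the 32 pairs in which the shared bases made up under 10% of the longer site, 20 went in opposite directions (62.5%). The count was 27 of 75 (36%) at 10 to 25%, 11 of 186 (5.91%) at 25 to 50%, and 2 of 1377 at 50% or more. Those 2, at Gm10800 and in Chl1, had an enrichment over IgG of at most 0.71 in either table. None of the 130 pairs with identical coordinates was opposite. Just outside the rule, 24 of 37 pairs of sites that touched without sharing a base were opposite (64.9%), as were 47 of 148 separated by 100 to 300 bp (31.8%) and 84 of 266 separated by 400 to 1000 bp (31.6%). The median overlap was 200 bp for the opposite pairs and 1000 bp for those of the same direction.

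**Figure D2:**
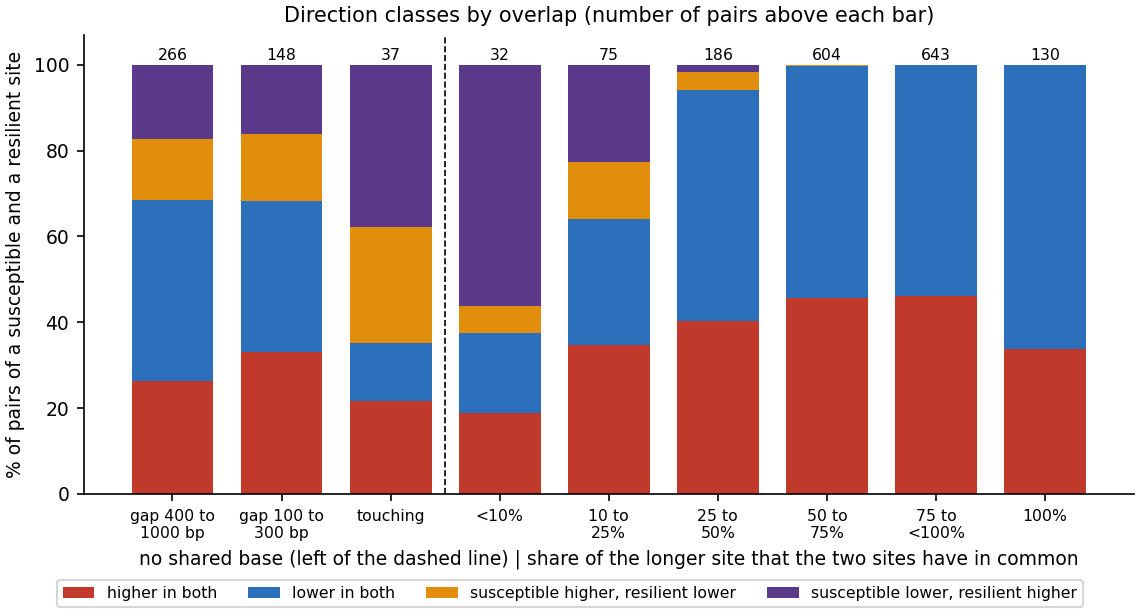
Bars give the percentage of each direction class among pairs of a susceptible and a resilient site, from sites 400 to 1000 bp apart (left) to sites with identical coordinates (right), with the number of pairs above each bar. Opposite directions make up 62.5% of the pairs overlapping by under 10% of the longer site and 0 of 130 identical pairs; the 3 bars left of the dashed line are outside the rule.

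Per-library medians show the spread behind these ratios, whose direction the rule fixes. At pairs higher in both, the per-library median log2 ratio, here log2((count + 1)/(control mean + 1)), was 0.43, 0.50, 0.35 and 0.42 in the susceptible libraries and 0.37, 0.46, 0.39 and 0.44 in the resilient libraries, against -0.08 to 0.03 in the control libraries. At pairs lower in both it was -0.45, -0.52, -0.33 and -0.39 in the susceptible libraries and -0.37, -0.47, -0.37 and -0.43 in the resilient libraries, against -0.04 to 0.07 in the control libraries. The susceptible and resilient ranges overlap in both classes. Susceptible library 32 had the smallest and library 29 the largest median change of the 8 in both classes. All 8 libraries were above the control mean at 643 of 723 pairs higher in both (88.9%) and below it at 813 of 887 pairs lower in both (91.7%). At 613 of the 1610 pairs of the same direction, all 8 ratios lay beyond the range of the 4 control ratios over the susceptible window. The control ratios over the resilient window were not used for this count.

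**Figure D3:**
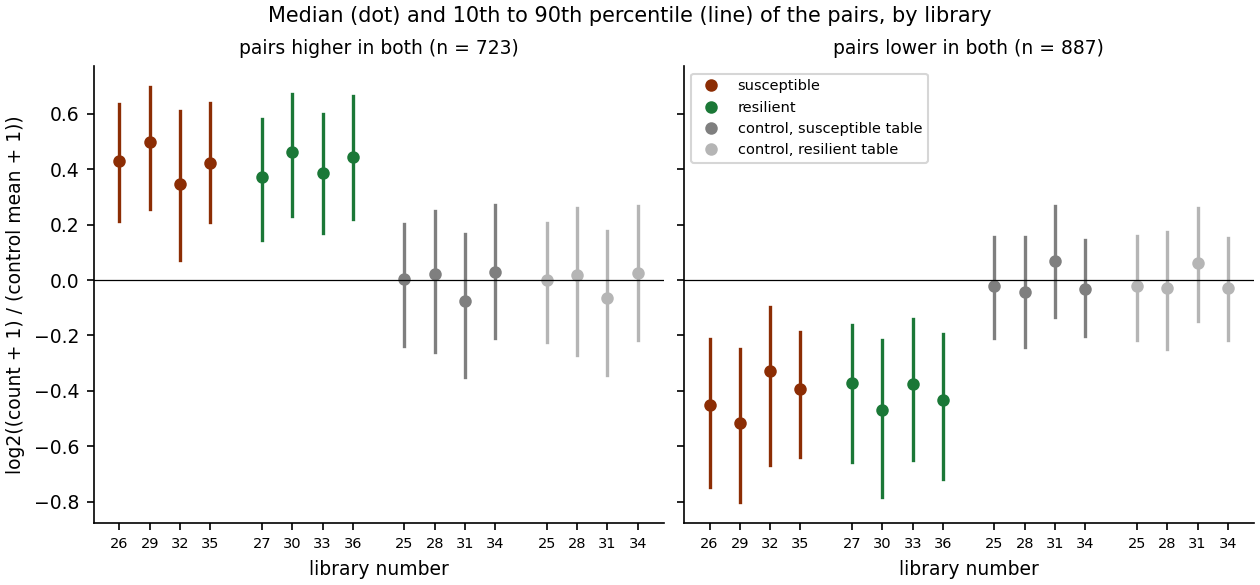
Dots give each library's median log2 ratio to the control mean over the 723 pairs higher in both (left) and the 887 lower in both (right), and lines run from the 10th to the 90th percentile of the pairs. Susceptible medians (0.35 to 0.50 and -0.52 to -0.33) and resilient medians (0.37 to 0.46 and -0.47 to -0.37) overlap, while control library 31 sits slightly to the other side of 0 in both panels.

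Susceptible and resilient libraries were then compared with each other at every pair, after division by the control mean of the same table (limma on log2 ratios, Benjamini-Hochberg adjustment over all 1670 pairs). No pair of the same direction passed: 0 of 1610 had an adjusted p under 0.05, and 2 had an unadjusted p under 0.05. Of all pairs, 59 (3.53%) had such an unadjusted p. All but 2 of these were opposite pairs, so that share is no background for pairs of the same direction. Over all 1670 pairs 57 were called (3.41%), 19 with susceptible higher (1.14%) and 38 with resilient higher (2.28%). All 57 were opposite pairs, for which the choice of members fixes the difference, and nothing is read from them. At pairs of the same direction the median absolute difference was 0.037 on the log2 scale, 90.6% differed by under 0.1, and the largest difference was 0.36. The median standard error was 0.14 and the median 95% interval reached 0.28 to either side. Both groups had to pass the authors' limit on the same side, which also narrows the difference that a pair can have. These data therefore do not show that the groups were equal at the common sites. The susceptible ratio was farther from 1 at 899 pairs and the resilient ratio at 711. The pairs were chosen by these same ratios, so nothing is read from these counts.

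The 4 susceptible ratios all lay above the 4 resilient ones at 19 pairs (1.14% of 1670), all of them opposite pairs. The 4 resilient ratios all lay above at 40 pairs (2.4%), 38 opposite and 2 of the same direction. These 2 were in Bloc1s6 and D5Ertd579e. D5Ertd579e also had 1 of the 2 unadjusted p-values under 0.05 (limma, adjusted p = 0.70), with ratios of 1.15, 1.10, 0.911 and 1.05 in the susceptible and 1.20, 1.41, 1.18 and 1.31 in the resilient libraries. Its susceptible site held 2528 to 3203 normalised counts and its resilient site 227 to 272. The other was in Gm20388 (limma, adjusted p = 0.9999), lower in both, where the sites share 200 bp. These 2 pairs were singled out after their values were seen, and neither reached 50% overlap, the limit used for the genes named next.

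Genes with sites higher in both outcomes were longer than those with sites lower in both. Genes whose pairs were all higher in both numbered 388, with a median length of 144.2 kb and a median transcript GC content of 43.99%. Those whose pairs were all lower in both numbered 705, with a median length of 39.4 kb and a GC content of 49.4%. All 21924 protein-coding genes had a median of 17.4 kb and 49.1%. Nkain2, which encodes a partner of the sodium pump, held the most pairs (13, of which 12 higher in both and 1 opposite), spread over 1046 kb or 87.1% of the gene. Csmd3, a giant complement-domain gene, held 11, all higher in both. Grm7, a presynaptic metabotropic glutamate receptor, held 9, with 7 higher in both, 1 lower in both and 1 opposite. The adhesion genes Cntnap5a and Lsamp held 8 each, all higher in both, as did Spock3, a testican proteoglycan.

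Lsamp encodes the limbic system-associated membrane protein, an IgLON adhesion molecule. Its leading site, in an intron at chr16:40484801-40485800 (mm10), had 77.05, 78.57, 81.07 and 79.33 normalised counts in susceptible libraries and 88.54, 87.57, 82.32 and 100.19 in resilient libraries, against 45.06, 64.52, 58.67 and 45.27 in controls over the susceptible window and 51.86, 62.81, 67.60 and 49.06 over the resilient window. All 8 stressed libraries exceeded all controls. The ratio to control was 1.480 ± 0.0313 in susceptible and 1.5503 ± 0.130 in resilient mice (SD, n = 4 each), a log2 difference of -0.06 with a 95% interval of -0.36 to 0.24.

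Ncam1, the neural cell adhesion molecule, had identical windows in both tables (chr9:49680901-49682000, intron). Susceptible libraries had 91.87, 89.40, 84.70 and 95.75 normalised counts there, resilient libraries 94.50, 72.05, 116.62 and 92.49, and controls 74.48, 50.69, 57.60 and 61.25 in the susceptible table. Resilient library 30 lay within the control range, and the susceptible libraries all lay above it. The ratios were 1.482 ± 0.0759 in susceptible and 1.502 ± 0.291 in resilient mice. Rsrc1, which encodes a splicing protein rich in arginine and serine, ranked first among pairs higher in both by the naming rule, at 1.511 ± 0.126 times control in susceptible and 1.611 ± 0.158 times in resilient mice, in an intron at chr3:67076601-67077700. Slc9a9 (an endosomal sodium-proton exchanger), Nfyb (a subunit of the CCAAT-binding factor NF-Y) and Lrrn1 (a neuronal leucine-rich repeat protein) had mean ratios of 1.49, 1.49 and 1.49 in susceptible and 1.48, 1.48 and 1.47 in resilient mice. Along the most occupied gene, the leading Nkain2 site averaged 1.377 ± 0.0440 in susceptible and 1.381 ± 0.211 in resilient mice, and the leading Csmd3 site 1.452 ± 0.0622 and 1.456 ± 0.0949 in that order.

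The leading sites lower in both lay in Ilf2, Sf3b2, Shkbp1, Tmem132b, Nub1 and Cntnap5b. Ilf2, part of a double-stranded RNA-binding complex, had 42.48, 43.35, 55.66 and 61.10 normalised counts in susceptible and 57.04, 64.29, 47.04 and 74.18 in resilient libraries, against 75.40, 81.80, 76.80 and 93.20 in controls over the susceptible window and 90.52, 106.67, 92.68 and 108.11 over the resilient window (chr3:90478101-90479200, over a noncoding or untranslated exon). No stressed library reached the control range of its own table. Sf3b2, a subunit of the SF3B splicing complex, had ratios to control of 0.643 ± 0.0913 in susceptible and 0.599 ± 0.0638 in resilient mice, at identical windows (chr19:5290001-5291300). Its log2 ratios were -0.64 in susceptible and -0.74 in resilient mice.

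Shkbp1, a binding partner of the endocytic adaptor SH3KBP1, had the lowest log2 ratio of all pairs in susceptible mice. Its coding-exon site at chr7:27351301-27352300 had 48.41, 22.58, 35.09 and 47.42 normalised counts in susceptible and 47.67, 47.66, 55.86 and 44.32 in resilient libraries, against 70.80, 69.13, 86.40 and 70.12 in controls over the same window. The log2 ratios were -0.95 in susceptible and -0.64 in resilient mice, and the difference of -0.36 had a 95% interval of -0.88 to 0.16 (limma, unadjusted p = 0.172, adjusted p = 0.9999). All stressed libraries lay below the controls, susceptible library 29 was the lowest, and the outcomes overlap. Tmem132b (a transmembrane protein), Nub1 (which delivers NEDD8 conjugates to the proteasome) and Cntnap5b (a contactin-associated protein) had mean ratios of 0.651, 0.659 and 0.649 in susceptible and 0.634, 0.654 and 0.660 in resilient mice. Among genes with only lower pairs, the predicted gene Gm20388 held the most, 7. Gaa (lysosomal acid alpha-glucosidase) and Hectd4 (a ubiquitin ligase) held 4 pairs each.

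**Figure D4:**
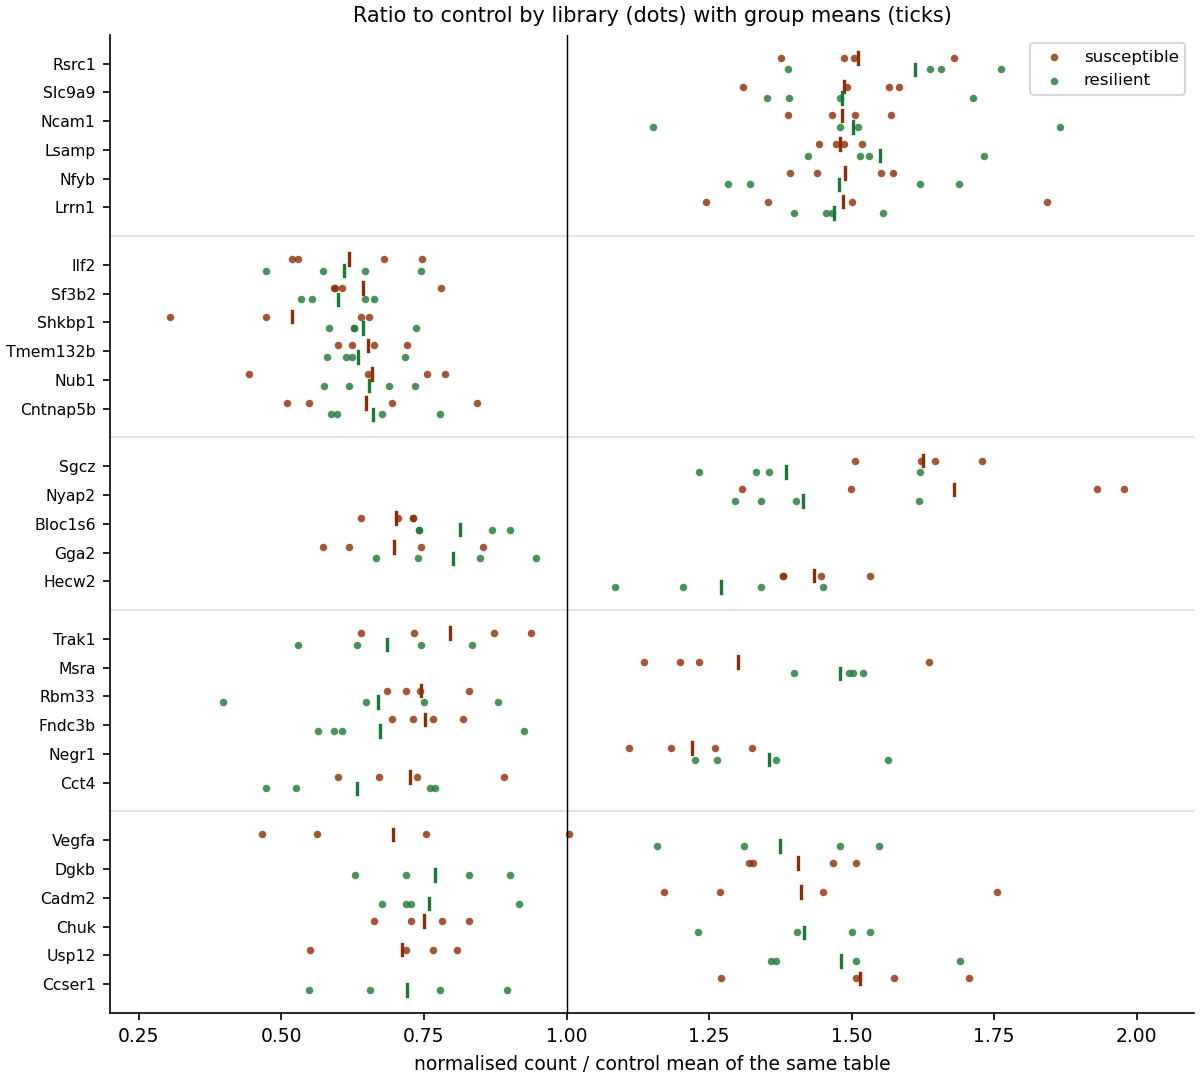
Dots give each library's normalised count divided by the control mean of its table, and ticks the group means, susceptible above resilient for each gene; the blocks from top to bottom are pairs higher in both, lower in both, with susceptible farther from control, with resilient farther from control, and opposite. In the first 4 blocks the susceptible and resilient dots overlap or nearly meet, while in the last block the group means lie on different sides of 1.

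Gene lists were described by their pairs, beside 43.3% higher in both and 53.1% lower in both over all pairs. The lists were written with earlier results of these data known, so their shares are descriptions with no test. A gene can hold several pairs, so the pairs of a list are not independent. Of the 21924 protein-coding genes, 1183 (5.4%) held a pair, and long genes offer more bases in which a pair can lie. In the synaptic adhesion list, 20 of 57 genes (35.1%) held 62 pairs, of which 56 were higher in both, 4 lower in both and 2 higher in susceptible and lower in resilient mice. Its median log2 ratio was 0.44 in both groups, against -0.33 in susceptible and -0.32 in resilient mice over all pairs. Cadherins and protocadherins had 13 of 15 pairs higher in both, axon guidance genes 15 of 16 (Dcc, a netrin receptor, with 6 and Robo1, a Slit receptor, with 4), and genes of GABA receptors and synthesis 9 of 10 (Gabrb1 with 5). Glutamate receptor genes had 17 of 22 higher in both, 4 lower in both and 1 opposite. Grik2, a kainate receptor subunit, had 5 pairs, all higher in both. The giant genes of common fragile sites, which share Nkain2, Csmd3 and others with the leading genes above, had 38 of 44 higher in both.

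Against 53.1% lower in both over all pairs, ubiquitin ligases and deubiquitinases had 11 of 13 pairs lower in both, 1 higher in both and 1 opposite. Anapc2, which belongs to the anaphase-promoting complex, and Ubr4, an N-degron ligase, had 2 pairs each. RNA splicing and 3′ end processing genes had 7 of 9 lower in both and 2 higher, while neuronal RNA-binding splicing regulators such as Nova1 had 6 of 7 higher in both. Signalling genes of cAMP, calcium and phospholipids were mixed, with 6 of 15 higher in both and 8 lower, and so were vesicle tethering, sorting and autophagy genes, with 10 of 25 higher and 12 lower. Potassium channels had 6 of 7 pairs higher in both, and sodium and calcium channels 7 of 11. Lists of immediate early genes (18 genes), ribosomal proteins (33) and markers of astrocytes (12), oligodendrocytes and precursors (14), microglia (11), vascular cells (11) and cortical neurons or interneurons (15) held no pair. Of 31 striatal neuron identity genes, 1 held a pair (3.23%), namely Rarb, a retinoic acid receptor of the striatum, where it was higher in both. At 5.4% of all genes, lists of these sizes would hold few pairs in any case, and nothing is read from these counts.

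**Figure D5:**
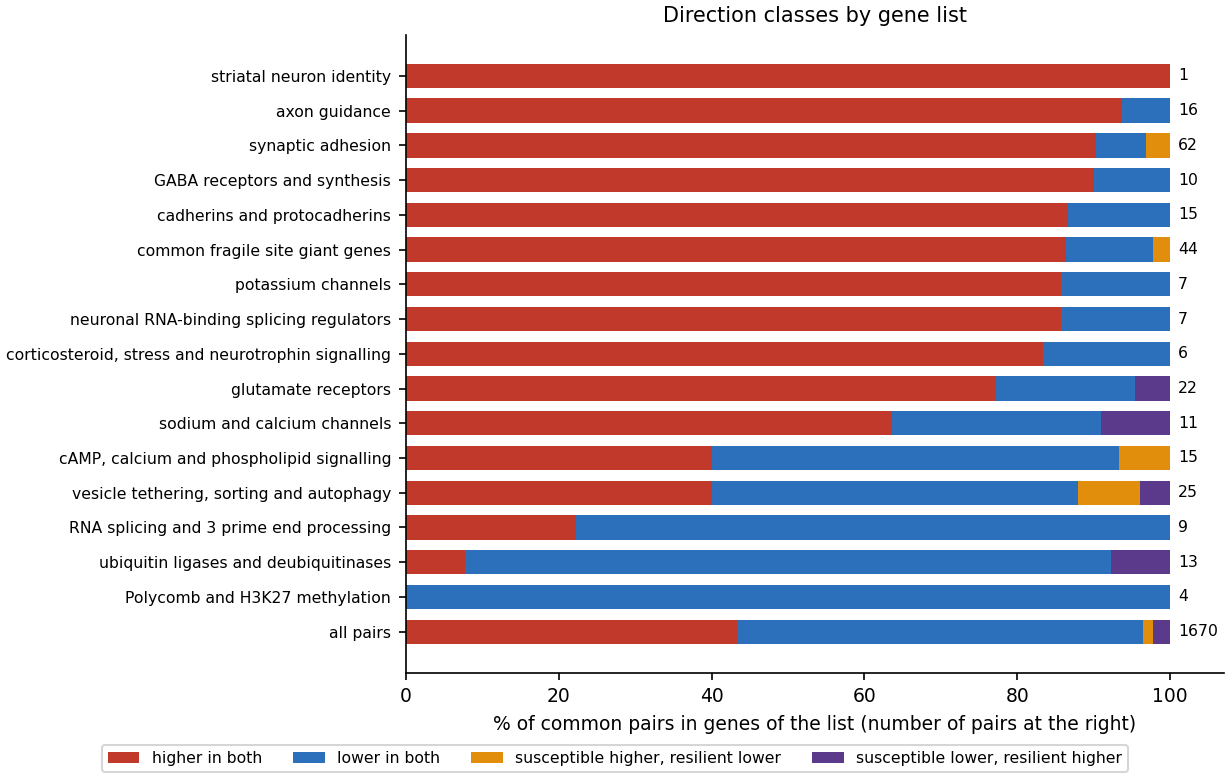
Bars give the percentage of each direction class among the common pairs in genes of each list, with the number of pairs at the right and all 1670 pairs in the bottom bar. Adhesion, axon guidance and receptor lists are mostly higher in both (77.3% to 93.8% of their pairs), as are neuronal RNA-binding splicing regulators (85.7%). Mostly lower in both are the lists of ubiquitin enzymes, of RNA splicing and 3′ end processing, and of Polycomb genes (only 4 pairs).

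Of 40 Polycomb genes, whose products write and bind H3K27 methylation, 4 held a pair (10%, against 5.4% of all genes). All 4 pairs were lower in both, against 53.1% of all pairs, and nothing is read from so few. Eed, the subunit that binds the methylated histone tail, had 70.14, 73.15, 49.61 and 92.10 normalised counts in susceptible and 91.09, 78.70, 62.72 and 63.59 in resilient libraries, against 102.06, 95.63, 94.93 and 100.30 in controls as scaled in the susceptible table, in an intron at chr7:89975501-89976500 with identical windows. All stressed libraries lay below the control range, with a ratio of 0.725 ± 0.177 in susceptible and 0.735 ± 0.134 in resilient mice. Suz12 had 0.727 ± 0.169 in susceptible and 0.719 ± 0.0966 in resilient mice, and Rbbp4 0.707 ± 0.0855 and 0.720 ± 0.207 in the same order. At Suz12 stressed and control libraries overlap in both tables, and at Rbbp4 they do not. Phc1, a subunit of the other Polycomb complex, had 0.805 ± 0.0950 in susceptible and 0.818 ± 0.0563 in resilient mice. The other 36 genes of that list had no common site.

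Receptors of stress hormones carried pairs higher in both. Nr3c1, the glucocorticoid receptor gene, had 123.48, 149, 141.57 and 160.49 normalised counts in susceptible and 103.86, 110.84, 107.80 and 130.06 in resilient libraries, against 125.97, 109.45, 117.33 and 92.31 in controls over the susceptible window and 104.67, 84.15, 86.14 and 70.86 over the resilient window. In each outcome 1 library lay inside the control range of its table and 3 lay above it. Nr3c2, the mineralocorticoid receptor gene, held 2 pairs, both higher in both. Its leading site averaged 1.282 ± 0.0609 in susceptible and 1.275 ± 0.259 in resilient mice, with control ratios that ranged from 0.699 to 1.35, so the groups overlap. Erbb4, the neuregulin receptor, also held 2 pairs, both higher in both. With Sgk1 at a start site, the list of corticosteroid, stress and neurotrophin signalling had 5 of 6 pairs higher in both.

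The pairs that leaned most toward one outcome did not pass the test between outcomes. Sgcz (zeta-sarcoglycan) had 100.76, 115.59, 110.11 and 108.51 normalised counts in susceptible and 86.84, 85.35, 103.88 and 79 in resilient libraries, against 72.64, 59.91, 64 and 71.01 in controls over the susceptible window and 65.06, 56.89, 59.97 and 74.49 over the resilient window. All stressed libraries exceeded the controls of their table, and the ratios of the outcomes overlap. Its ratio was 1.626 ± 0.0916 in susceptible and 1.385 ± 0.166 in resilient mice, a log2 difference of 0.23 with a 95% interval of -0.05 to 0.52 (limma, unadjusted p = 0.103, adjusted p = 0.9999). Nyap2, a neuronal adaptor of phosphoinositide 3-kinase, had 1.679 ± 0.327 in susceptible and 1.414 ± 0.143 in resilient mice. Hecw2, a ubiquitin ligase, had 1.435 ± 0.0727 in susceptible and 1.270 ± 0.159 in resilient mice. Bloc1s6, a subunit of the lysosome-related organelle complex BLOC-1, was lower than control. Its ratios were 0.639 to 0.731 in susceptible and 0.741 to 0.901 in resilient libraries, with no overlap. Its resilient site missed an authors' adjusted p of 0.05 (diffReps, adjusted p = 0.080). The log2 difference was -0.21 with a 95% interval of -0.50 to 0.08 (limma, unadjusted p = 0.151, adjusted p = 0.9999). Gga2, a Golgi sorting adaptor, averaged 0.698 ± 0.127 in susceptible and 0.801 ± 0.123 in resilient mice.

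Leaning the other way, Msra (methionine sulfoxide reductase A) had 89.90, 97.53, 129.47 and 94.84 normalised counts in susceptible and 78.32, 72.05, 77.42 and 77.07 in resilient libraries, against 87.35, 82.95, 72.53 and 73.67 in controls over the susceptible window and 56.58, 45.04, 54.52 and 49.97 over the resilient window. Here too all stressed libraries exceeded the controls of their table, and the ratios overlap. The ratio was 1.301 ± 0.227 in susceptible and 1.479 ± 0.0549 in resilient mice, and the difference of -0.19 had an interval of -0.49 to 0.10. A second site of Negr1, an IgLON relative of Lsamp, had 1.219 ± 0.0933 in susceptible and 1.355 ± 0.152 in resilient mice. Lower in both and farther from control in resilient mice were Trak1 (a motor adaptor of mitochondria, 0.795 ± 0.135 in susceptible and 0.685 ± 0.133 in resilient mice), Rbm33, Fndc3b and Cct4. For Rbm33 the log2 difference turned to -0.021 without resilient library 30, so that the susceptible ratio was then the farther one. Cct4, a chaperonin subunit, had its pair over a transcription start, at chr11:22988701-22989800, with 0.725 ± 0.124 in susceptible and 0.632 ± 0.155 in resilient mice. Over these genes, including Shkbp1, the smallest unadjusted p was 0.103 (limma), and each adjusted p was 0.9999.

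Opposite pairs are described without a test, and their genes were chosen after the values were seen, except Chl1. The sites of an opposite pair shared a median of 14.3% of the longer site, so most of its bases were usually not shared. Vegfa, the vascular endothelial growth factor gene, had 67.17, 41.54, 89.54 and 50.15 normalised counts in susceptible libraries, against 94.71, 84.11, 86.40 and 91.42 in controls over the susceptible site, and 121.74, 95.33, 127.40 and 107.90 in resilient libraries, against 68.84, 96, 69.78 and 94.48 in controls over the resilient site. The sites share 400 bp at chr17:46020401-46020800, 30.8% of the longer one, and the log2 ratios were -0.52 in susceptible and 0.46 in resilient mice. Susceptible library 32 lay within the control range and the other susceptible libraries below it, while resilient library 30 lay just inside its control range and the others above it. Dgkb, a diacylglycerol kinase abundant in striatum, had 3 pairs higher in both and 1 opposite pair with 200 shared bp at chr12:38606601-38606800. There the ratios were 1.405 ± 0.0966 in susceptible and 0.769 ± 0.121 in resilient mice. Cadm2, a synaptic adhesion gene with 3 pairs higher in both, had an opposite pair at 1.411 ± 0.256 in susceptible and 0.760 ± 0.107 in resilient mice.

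The widest gap was at Ccser1, where sites sharing 100 bp had 117.56, 127.33, 112.53 and 94.84 normalised counts in susceptible libraries, against 67.12, 72.58, 64 and 94.98 in controls, and 81.73, 70.94, 59.78 and 50.10 in resilient libraries, against 87.69, 104.30, 73.06 and 99.93 in controls. Susceptible library 35 and resilient library 27 lay inside the control range of their table, and the others lay outside it. In the other direction, Usp12, a deubiquitinase, averaged 0.711 ± 0.114 in susceptible and 1.481 ± 0.156 in resilient mice, over sites sharing 0.1 kb. Chuk, the kinase IKK alpha, averaged 0.750 ± 0.0717 in susceptible and 1.417 ± 0.136 in resilient mice. Pairs of this direction shared at most 41.2% of the longer site, so most of its bases were not shared. At 53 of the 60 opposite pairs, all 4 susceptible libraries lay on one side of the control mean and all 4 resilient libraries on the other. Of 443 blocks of 5 Mb that held a pair, 49 held an opposite pair and 7 held 2 or more. The blocks at 145 to 150 Mb of chromosome 4 (4 opposite of 17 pairs), 20 to 25 Mb of chromosome 7 (3 of 19) and 20 to 25 Mb of chromosome 12 (3 of 12) each had only pairs of the kind lower in susceptible and higher in resilient mice among their opposite pairs. The zinc-finger genes Rex2, Zfp933 and Zfp979 lie in the first of these.

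Direction could also change within a gene. Pairs higher in both and pairs lower in both, with none opposite, occurred together in 45 genes. Grid1, a delta glutamate receptor, had 3 pairs lower in both, with log2 ratios of -0.49, -0.44 and -0.56 in susceptible and -0.49, -0.56 and -0.51 in resilient mice. Its remaining pair was higher in both, at 0.37 in susceptible and 0.48 in resilient mice.

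Some pairs lay where signal did not exceed background. The deposited enrichment over IgG, taking the larger of the stressed and control values, was under 1 in at least one table at 20 pairs, against a median of 3.09 over all pairs for the lower of the 2 tables. Of these, 4 were on mitochondrial DNA, which carries no histones, with an enrichment of 0.01 to 0.03, and all 4 were higher in both, by 0.18 to 0.20 in susceptible and 0.14 to 0.17 in resilient mice on the log2 scale. Another 3 were opposite pairs, at the predicted genes Gm10800 and Gm10801 and in Chl1, an L1-family adhesion gene. At Chl1, the only eligible gene of its class under the naming rule, the change was 0.03 in susceptible and -0.06 in resilient mice on the log2 scale, over control means of 21043 and 21580 normalised counts in the susceptible and the resilient table. Without the 20 pairs, 719 were higher in both, 874 lower in both, 19 higher in susceptible and lower in resilient mice, and 38 lower in susceptible and higher in resilient mice. That filter was added after the data were seen.

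Common sites were also set beside the sites of the other comparisons. In all, 17 pairs (1.02%) overlapped a differential H3K27me2 site of susceptible mice and 17 (1.02%) one of resilient mice. Among the 18 overlaps of each, 1 in susceptible and 3 in resilient mice had an H3K27me2 enrichment over IgG of at least 1. The H3K27me2 site had the direction that both outcomes shared in 10 overlaps in susceptible and 15 in resilient mice. The H3K27me2 share was not computed for H3K27me1 sites without a partner, so nothing is read from these counts. A separate cohort, also of wild-type males, compared early life stress followed by subthreshold defeat with its own controls, labelled standard, in 3 libraries each. Its sites came from a negative binomial test, per the file header, and its defeat was not the chronic one of the other tables. Of its 10234 H3K27me1 sites, 14 overlapped 14 common pairs (0.838% of the pairs). Sites of that cohort overlapped 1.03% of the susceptible sites with a resilient partner and 1.17% of those without, and 0.907% of the resilient sites with a susceptible partner and 0.746% of those without. Directions were mixed. In 6 of the 15 overlaps the site of that cohort had the direction that both outcomes of chronic defeat shared, and 66.7% of all its sites were higher than control.

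A pair in Cntnap5a and a pair in Grid1 were higher in all 3 comparisons. The other 3 Grid1 pairs were lower in both outcomes of chronic defeat. At Cntnap5a the group of early life stress with subthreshold defeat had 105.50, 76.52 and 83.07 normalised counts, against 64.22, 50.54 and 51.43 in its controls. Ide, the insulin-degrading enzyme, and Btaf1, a regulator of the TATA-binding protein, were lower in all 3. Trim44 and Ppp2r5e went the other way, higher in both outcomes of chronic defeat and lower after early life stress with subthreshold defeat. The Dgkb pair that was higher in susceptible and lower in resilient mice had 77.98, 55.99 and 42.07 normalised counts after early life stress with subthreshold defeat, against 97.81, 92.33 and 95.89 in controls.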

How the data were processed

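Per the submitters' processing notes, the mm10 genome was used with MACS2 2.2.6, SAMtools 1.10, Bowtie2 2.4.1, cutadapt 2.10 and Trim Galore 0.6.5. Differential sites came from diffReps 1.55.4 with 1000-bp windows, a 100-bp step and a p limit of 0.0001, by a G-test for the chronic defeat tables, per the file headers. The names of those tables carry an abbreviation that may stand for a negative binomial test, so which test gave the deposited p-values is not certain. The deposited p of a site reached 0.00925 in the susceptible and 0.00527 in the resilient table, above the window limit. Group means and library values are signal, reads per site divided by a library constant, by the authors. Enrichment over IgG was deposited as a ratio. The deposited log2 fold change was not used, since log2 ratios were computed from the deposited group means. P-values and adjusted p-values of each site are the authors'.

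Library values were divided by the control mean of their table, with a pseudocount of 1, and compared with limma 3.58.1 in R 4.3.3 (two-sided, variance trend, tested on simulated data). Genes are from GENCODE M21 (21924 protein-coding names) and promoters from RefSeq (GRCm38.p6). Without strand in the files, overlapping genes cannot be told apart. Where a window met several genes, each was counted. Members and the 23 gene lists were chosen with earlier results of these data known. Named genes were ranked by the smaller of the 2 absolute log2 ratios (6 per class), by limma p among pairs of the same direction (6 per lean), by number of pairs (5 genes, and up to 3 per list) and by membership of the Polycomb list. They needed at least 50% overlap, a control mean of 30 or more and an enrichment of at least 1 where 6 genes allowed it, and predicted symbols were left out. Where no pair of a listed gene met this, its best pair was used. The enrichment limit left no gene in the class of Chl1, so it was dropped there. Counts are the authors' normalised counts, and their precision is limited by 4 libraries per group.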

Additional observations from a re-analysis of the deposited data

Results flagged for a closer look

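Of 62 groups of 4 libraries tested for a value far from the others (Dixon's 95% critical value of 0.829; chance gives about 1 in 20), 3 were past it. Sf3b2 had a ratio to control of 0.780 in susceptible library 32, against 0.592 to 0.607 in the other susceptible libraries. Fndc3b had a ratio of 0.925 in resilient library 33, against 0.565 to 0.606 in the other resilient libraries. Control library 31 had a median log2 ratio of 0.061 over pairs lower in both in the resilient table, against -0.029 to -0.020 in the other controls. At 53 opposite pairs, all 4 susceptible libraries lay on one side of the control mean and all 4 resilient libraries on the other, and that difference was not tested, since the choice of members fixes it.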

How the results depend on the processing

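No alternative gave a pair of the same direction with an adjusted p under 0.05 between susceptible and resilient libraries (limma). The count at an unadjusted p under 0.05, 2 as reported, was 1 with a pseudocount of 10 or without the variance trend, and 0 with library medians set to 0, with at least 50% overlap, or with an authors' adjusted p under 0.001 in both tables. It ranged from 0 to 2 when 1 of the 12 libraries was left out. At least 50% overlap changed the share of pairs higher in susceptible and lower in resilient mice to 0.145% and that of the other opposite kind to 0%. The authors' adjusted p under 0.001 in both tables left 280 of the 1670 pairs, 43.9% higher in both, 52.9% lower in both, 1.07% higher in susceptible and lower in resilient mice, and 2.14% of the other opposite kind. Leaving out 1 library gave 43.1% to 43.4% higher in both, 53.1% to 53.5% lower in both, 1.14% to 1.56% and 2.28% to 2.34% of the opposite kinds, and a median absolute difference of 0.040 to 0.063. Chl1 changed sign in susceptible mice without susceptible library 32 (-0.040) or control library 25, its range without 1 library being -0.040 to 0.065, and in resilient mice with library medians set to 0 (0.091). The Rbm33 difference changed sign without resilient library 30 (-0.021), its range without 1 library being -0.021 to 0.35. The cause was not tested. Over named pairs, 101 of 2374 log2 ratios moved by over 1 SD without changing sign, and 208 of 209 differences kept direction and call. The planned edgeR fit was not run, since the library values used are normalised counts joined in 1 column. No paired analysis was possible because the groups share no library number, and the labels do not say that neighbouring numbers belong together. Windows that passed in only one table have no value for the other group and were not analysed here.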
